A study of Homo sapiens with 4 samples.

Results

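The genes described here build the centromere, the kinetochore and the spindle assembly checkpoint of HCT116 cells, an established human colon carcinoma line. A list of 49 such genes was matched to the probe sets of an Affymetrix expression array by gene symbol, older names included, and a probe set was used only if its annotation gave 1 symbol. Of the 49 genes, 48 had such a probe set and all 48 passed the filter on dim signals, out of 14337 genes tested. CENPJ was found under its current symbol CPAP. CENPP, a constitutive centromere protein, had a probe set annotated with a second symbol and was not analysed here.

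The study measured cells grown as spheroids, which are rounded multicellular aggregates, and cells grown as a monolayer. Each culture was sampled from HCT116 wt/GFP and from HCT116 wt cells, with 1 array for each line and culture. That gives 4 arrays: spheroids of wt/GFP, spheroids of wt, monolayer of wt/GFP and monolayer of wt. The labels give no treatment, time in culture or number of cultures per array. They do not say how wt/GFP was made or whether it is a clone.

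The centromere is marked by nucleosomes that hold CENP-A, a variant of histone H3, in place of the canonical histone. A network of constitutive proteins stays on this chromatin through the cell cycle. In mitosis it carries the outer kinetochore, which grips spindle microtubules. Kinetochores without a microtubule send the checkpoint signal that holds cells before anaphase, and the chromosomal passenger complex corrects faulty attachments. Many of these genes are transcribed mainly in late cell cycle phases, so their RNA is low in resting cells.

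Signals are MAS5 values on a linear scale, in arbitrary units, and each array had been scaled to a common trimmed mean of 500.1. Over all probe sets the median was 68.4 and 67.3 in wt/GFP and wt spheroids, against 48.8 and 48.0 in the monolayers. The 3' to 5' signal ratio of ACTB, a sign of RNA integrity, was 1.73 and 1.76 in wt/GFP and wt spheroids, against 1.30 and 1.32 in the monolayers, and its part in the results below was not tested. The same ratio for GAPDH overlapped, at 0.951 and 0.868 in spheroids against 0.882 and 0.897 in monolayers. Of 8 colon epithelial markers all 8 passed the filter, with summed signals of 113575 and 115122 in spheroids against 86465 and 104808 in monolayers. Of 6 fibroblast markers 3 passed, with summed signals of 4059 and 2434 in spheroids against 443 and 472 in monolayers, mostly from COL1A1. Leukocyte markers summed to between 39.6 and 110 on all arrays, with 1 of 5 passing, and endothelial markers to between 117 and 270, with 1 of 3 passing.

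In spheroids 42 of the 48 genes were lower at an adjusted p under 0.05 in limma, 0 were higher and 6 did not pass. Among all genes tested 18.6% were lower and 30.7% were higher. The median change of the 48 genes was -1.54 on the log2(signal + 14.0) scale, a fall of 2.90-fold, against a median of 0.23 over all genes. A fall of at least 2-fold was met by 36 of the 48, against 5.04% of all genes. In both lines the spheroid value was below the monolayer value for 46 of the 48, against 29.4% of all genes. For 45 of the 48, both spheroid signals lay under both monolayer signals, which held for 26.5% of all genes. In bulk RNA, fewer cells in mitosis and less of these transcripts per cell cannot be told apart.

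**Figure D1:**
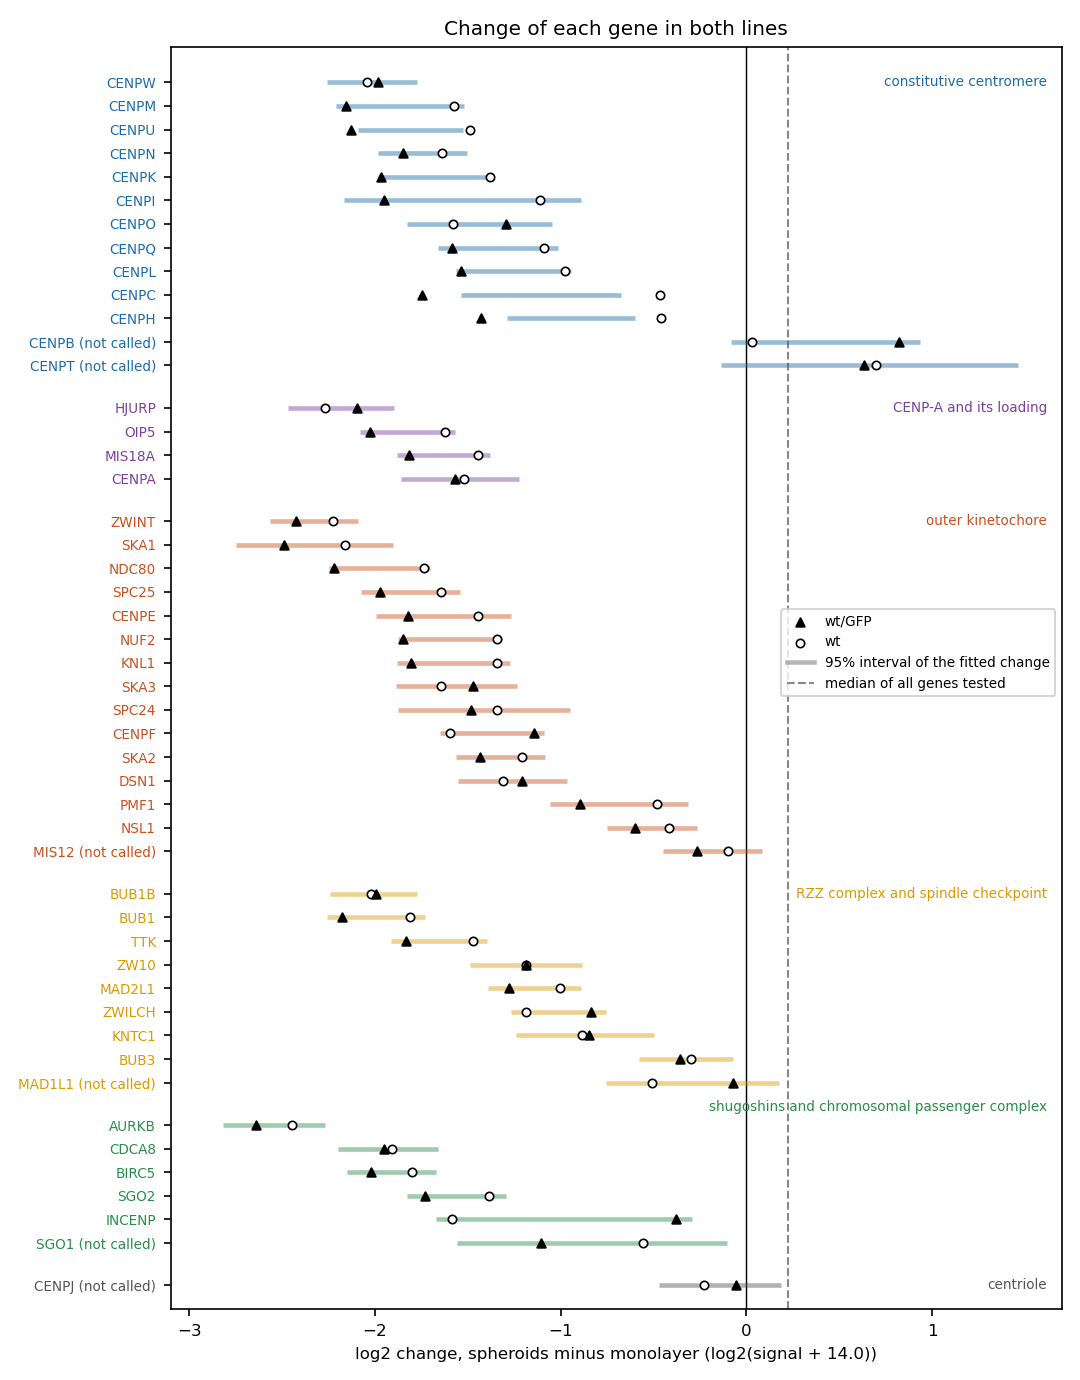
Log2 change of each of the 48 genes, spheroids minus monolayer, on the log2(signal + 14.0) scale. Triangles are wt/GFP, open circles are wt, bars are the 95% interval of the fitted change (n = 2 arrays per culture), and the dashed line is the median of all genes tested, 0.23. The genes lie left of 0 apart from CENPB and CENPT, and the spread between lines is widest for CENPC, CENPH and INCENP.

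Of 13 constitutive centromere genes, 11 fell, beside 18.6% of all genes called lower, and the median change was -1.44. The largest fall was that of CENPW, a histone-fold protein that pairs with CENPT on centromeric DNA. It had signals of 1185 and 1244 in wt/GFP and wt spheroids, against 4728 and 5174 in the monolayers, and pairs of signals below keep this order of wt/GFP and then wt. The cultures did not overlap, and the log2 signal fell by 2.01 ± 0.12 (SE, adjusted p = 6.07e-14). Its partner CENPT, which recruits the microtubule-binding Ndc80 complex, had 107 and 122 in spheroids against 64.1 and 69.6 in monolayers. Those values are higher in spheroids in both lines, but the change of 0.67 did not pass (95% interval -0.13 to 1.47, adjusted p = 0.164). The value of CENPT moved with the scaling of the arrays, to between 0.071 and 0.27 under the 3 others tried, where it did not pass either.

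The 4 genes of the CENP-H/I/K/M assembly, a scaffold of the constitutive network, all fell. CENPM had 282 and 403 in wt/GFP and wt spheroids against 1306 and 1226 in monolayers, and CENPK had 459 and 612 against 1834 and 1616. CENPI had 57.3 and 116 against 261 and 266. A dimmer probe set of CENPI that passed the filter gave -0.81 and was not called in the fit of single probe sets. The log2 changes were -1.86 ± 0.17 for CENPM, -1.67 ± 0.15 for CENPK and -1.53 ± 0.31 for CENPI. CENPH fell less, by 0.94 ± 0.17, and unevenly between lines: it had 549 and 891 in wt/GFP and wt spheroids against 1498 and 1231 in monolayers.

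CENPN, which reads the CENP-A nucleosome directly, and its partner CENPL both fell. CENPN had 1914 and 2406 in wt/GFP and wt spheroids against 6934 and 7517 in monolayers, a change of -1.74 ± 0.12, and CENPL fell by 1.25 ± 0.15. CENPL had 541 and 678 in spheroids against 1593 and 1346 in monolayers. In the CENP-O/P/Q/U/R group, which helps to dock the mitotic kinase PLK1, the 3 listed genes with values fell. CENPU had 711 and 1243 in wt/GFP and wt spheroids against 3156 and 3515 in monolayers, and fell by 1.81 ± 0.14. Its 2 other probe sets that passed the filter were called lower with smaller changes of -0.91 and, for the unshared one, -1.13. The changes of CENPO and CENPQ were -1.44 ± 0.19 and -1.34 ± 0.16. CENPO had 293 and 212 in spheroids against 739 and 661 in monolayers, and CENPQ had 423 and 543 in spheroids against 1296 and 1171 in monolayers. No gene of these assemblies overlapped between cultures. In 26.5% of all genes both spheroid signals lay under both monolayer signals.

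CENPC, which binds the CENP-A nucleosome and links it to the outer kinetochore, differed most between lines. It had 253 in wt/GFP spheroids and 517 in wt spheroids, against 882 and 720 in their monolayers. The log2 change was -1.75 in wt/GFP and -0.47 in wt, so the fitted change of -1.11 ± 0.21 (adjusted p = 6.53e-05) carries an error narrower than the gap between the lines. Without the trend in the moderation, CENPC and CENPH did not pass (adjusted p = 0.116 and 0.103). CENPB, which binds a sequence box in the satellite repeats of centromeres, had 380 and 220 in wt/GFP and wt spheroids against 209 and 215 in monolayers. Its change of 0.43 did not pass (95% interval -0.085 to 0.94, adjusted p = 0.162), and the high value is that of the wt/GFP spheroids. Without the wt spheroid array CENPB passed as higher (0.80, adjusted p = 0.0254), but that fit holds only the high wt/GFP array for spheroids and takes its spread from the monolayer pair and other genes. Under the 3 other scalings CENPB lay between -0.17 and 0.07 and did not pass.

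**Figure D2:**
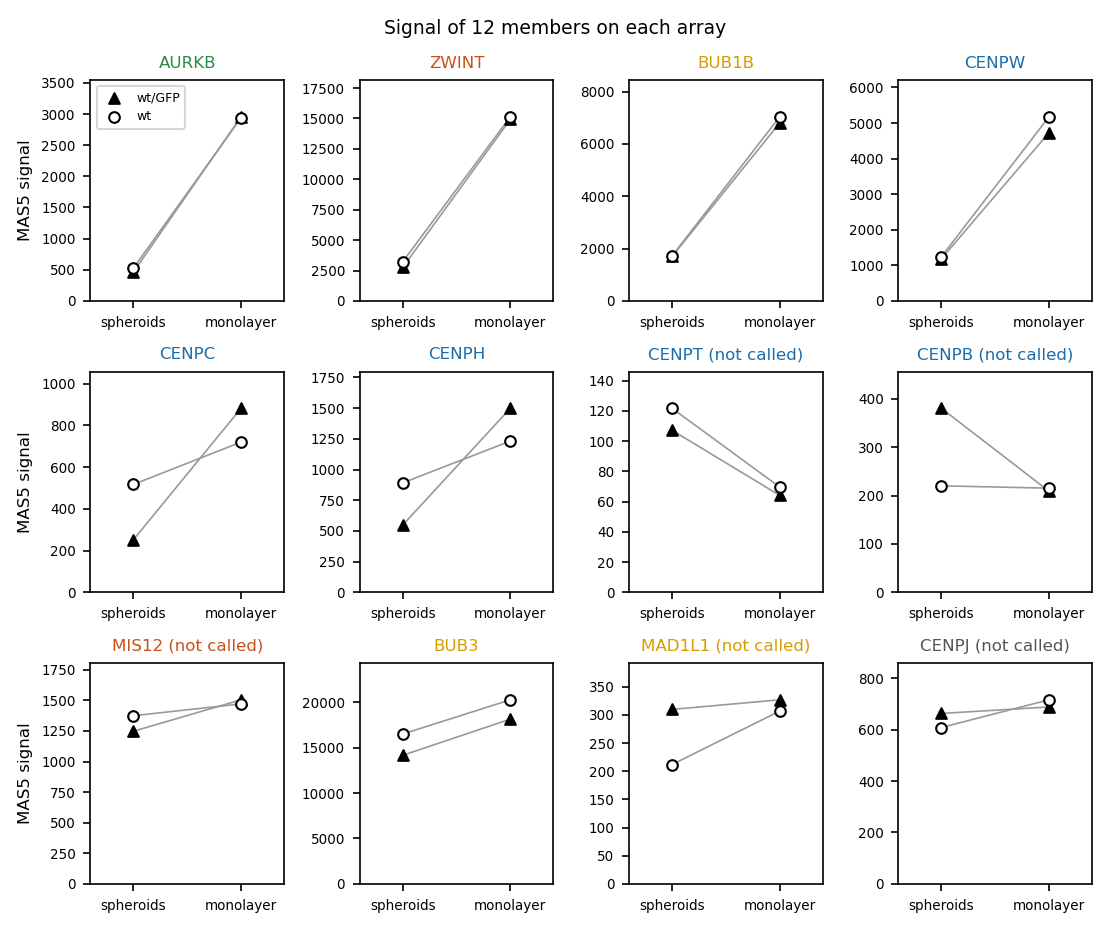
MAS5 signal (linear axis from 0) of 12 genes on each of the 4 arrays, spheroids left and monolayer right, with a line joining the arrays of a cell line. AURKB, ZWINT, BUB1B and CENPW are low in the spheroids of both lines, CENPC and CENPH are lowest in wt/GFP spheroids, and the remaining genes show small or opposite differences.

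CENP-A itself and the 3 genes that load it all fell, beside 18.6% of all genes called lower, with a median change of -1.73. HJURP, the chaperone that deposits CENP-A, had 505 and 450 in wt/GFP and wt spheroids against 2202 and 2223 in monolayers, and fell by 2.18 ± 0.14 (adjusted p = 3.38e-13). CENPA had 417 and 412 against 1262 and 1205, a change of -1.54 ± 0.15 that was nearly equal in both lines. OIP5 and MIS18A, subunits of the complex that licenses centromeres for loading, had changes of -1.82 ± 0.12 and -1.63 ± 0.12. OIP5 had 1126 and 1566 in spheroids against 4630 and 4845 in monolayers. No gene of this group had overlapping cultures, beside 26.5% of all genes with both spheroid signals under both monolayer signals. MIS18A had 1317 and 1940 in spheroids against 4669 and 5297 in monolayers.

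In the outer kinetochore 14 of 15 genes fell, beside 18.6% of all genes called lower, with a median change of -1.56. All 4 subunits of the Ndc80 complex, the main microtubule coupler, fell. NDC80 had 726 and 937 in wt/GFP and wt spheroids against 3430 and 3149 in monolayers, and fell by 1.98 ± 0.13. The changes of SPC25, NUF2 and SPC24 were -1.81 ± 0.13, -1.60 ± 0.14 and -1.41 ± 0.23. SPC24 was the dimmest of the complex's probe sets, with 162 and 166 in spheroids against 476 and 444 in monolayers. Differences between the subunits were not tested. SPC25 had 780 and 884 in spheroids against 3100 and 2789 in monolayers, and NUF2 had 732 and 934 in spheroids against 2676 and 2389 in monolayers.

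The Mis12 complex, which ties the Ndc80 complex to the constitutive network, was split. DSN1 had 607 and 563 in wt/GFP and wt spheroids against 1419 and 1417 in monolayers, and fell by 1.26 ± 0.14 (adjusted p = 2.51e-08). PMF1 fell by 0.69 ± 0.18 (adjusted p = 0.00224) and NSL1 fell by 0.51 ± 0.12 (adjusted p = 0.000638). PMF1 had 382 and 397 in spheroids against 723 and 559 in monolayers, and NSL1 had 2381 and 2700 in spheroids against 3614 and 3609 in monolayers. MIS12 had 1248 and 1375 in spheroids against 1505 and 1471 in monolayers, and its change of -0.18 did not pass (95% interval -0.45 to 0.085, adjusted p = 0.26); it passed as lower under median centring (-0.57, adjusted p = 0.000559). The falls of NSL1 and PMF1 are the less secure: NSL1 did not pass with the mean of its probe sets (change -0.26, adjusted p = 0.25) or with unshared ones (-0.25, adjusted p = 0.307), and PMF1 did not pass without the wt/GFP monolayer array (-0.51, adjusted p = 0.114).

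KNL1, the scaffold that recruits checkpoint proteins, and ZWINT, which binds KNL1, both fell. ZWINT had 2764 and 3225 in wt/GFP and wt spheroids against 14926 and 15138 in monolayers, and its change of -2.33 ± 0.12 had the lowest adjusted p of all 48 genes (1.85e-15). KNL1 had 476 and 632 against 1702 and 1624, a change of -1.57 ± 0.15. The Ska complex, which holds kinetochores to the ends of microtubules, fell as a whole. SKA1 had 134 and 162 in wt/GFP and wt spheroids against 814 and 775 in monolayers, and fell by 2.32 ± 0.21. SKA3 fell by 1.56 ± 0.16 and SKA2 fell by 1.32 ± 0.12. SKA3 had 420 and 359 in spheroids against 1191 and 1152 in monolayers, and SKA2 had 1990 and 2201 in spheroids against 5409 and 5109 in monolayers. CENPE, a kinesin that carries chromosomes towards the spindle equator, fell by 1.63 ± 0.18, and CENPF, a large protein of the outermost layer, fell by 1.37 ± 0.14. CENPE had 258 and 323 in spheroids against 948 and 903 in monolayers, and CENPF had 960 and 732 in spheroids against 2138 and 2242 in monolayers. Neither overlapped between cultures, and both spheroid signals lay under both monolayer signals in 26.5% of all genes.

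Among 9 genes of the RZZ complex and the spindle checkpoint 8 fell, beside 18.6% of all genes called lower, with a median change of -1.14. BUB1B, which encodes BubR1, an inhibitor of the anaphase-promoting complex, had 1699 and 1722 in wt/GFP and wt spheroids against 6800 and 7035 in monolayers. It fell by 2.01 ± 0.12 (adjusted p = 3.83e-14), with changes of -1.99 in wt/GFP and -2.02 in wt. BUB1, a kinase that marks centromeric histone, had 802 and 1083 against 3683 and 3829 and fell by 1.99 ± 0.13. TTK, the kinase known as Mps1 that starts the checkpoint signal, fell by 1.65 ± 0.13. TTK had 976 and 1279 in spheroids against 3512 and 3572 in monolayers. MAD2L1, which encodes the checkpoint effector Mad2, had 7081 and 9207 in wt/GFP and wt spheroids against 17199 and 18434 in monolayers, and fell by 1.14 ± 0.12.

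Genes of the RZZ complex, which brings dynein and Mad1 to kinetochores, all fell, with changes of -1.19 ± 0.15 for ZW10, -1.01 ± 0.13 for ZWILCH and -0.87 ± 0.18 for KNTC1. ZW10 had 550 and 573 in spheroids against 1268 and 1320 in monolayers, ZWILCH had 1514 and 1462 in spheroids against 2710 and 3346 in monolayers, and KNTC1 had 344 and 338 in spheroids against 631 and 636 in monolayers. The cultures overlapped in none of these 3 genes, beside 26.5% of all genes with both spheroid signals under both monolayer signals. BUB3, the partner of BUB1, was measured by 6 probe sets that passed the filter. On the brightest, BUB3 had 14161 and 16503 in wt/GFP and wt spheroids against 18140 and 20266 in monolayers, and fell by 0.33 ± 0.12 (adjusted p = 0.0293). That call was lost without the cell line term (adjusted p = 0.09), without the wt spheroid (0.111), wt/GFP spheroid (0.427) or wt monolayer array (0.181), with no filter (0.0816) and without trend (0.175), and a dim unshared probe set gave a change of 0.071 (adjusted p = 0.863). In the fit of single probe sets, 3 other bright ones of BUB3 were called lower with larger changes of -0.74, -0.70 and -0.51, and the brightest was called lower under all 4 scalings. MAD1L1, which encodes the Mad1 partner of Mad2, had 310 and 212 in wt/GFP and wt spheroids against 327 and 307 in monolayers, and its change of -0.29 did not pass (95% interval -0.75 to 0.18, adjusted p = 0.307). It passed as lower after each other scaling of the arrays, with changes between -0.88 and -0.62.

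The chromosomal passenger complex fell in all 4 subunits, beside 18.6% of all genes called lower, with a median change of -1.92. AURKB, its kinase, had 463 and 527 in wt/GFP and wt spheroids against 2956 and 2938 in monolayers. It fell by 2.54 ± 0.13 (adjusted p = 6.86e-15), or 5.83-fold, the largest fall of the 48 genes. CDCA8, which encodes borealin, had 681 and 635 against 2679 and 2427 and fell by 1.93 ± 0.13. BIRC5, which encodes survivin, had 2184 and 2586 against 8918 and 9025 and fell by 1.91 ± 0.12. INCENP, the scaffold that activates AURKB, was dimmer, with 127 and 66.5 in wt/GFP and wt spheroids against 170 and 228 in monolayers. Its change of -0.98 ± 0.34 (adjusted p = 0.0165) was uneven, with changes of -0.38 in wt/GFP and -1.58 in wt, and it was lost without the wt spheroid array (-0.57, adjusted p = 0.192) or the wt monolayer array (-0.78, adjusted p = 0.153).

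The shugoshins guard the cohesin that joins sister centromeres. SGO2 had 859 and 1052 in wt/GFP and wt spheroids against 2885 and 2777 in monolayers, and fell by 1.56 ± 0.13. SGO1 had 58.1 and 105 against 141 and 160, with no overlap, but its change of -0.83 ± 0.36 did not pass (adjusted p = 0.0541). It passed under 7 of the 17 alternatives, with changes between -1.42 and -0.60, and 1 of these left out the wt spheroid array (adjusted p = 0.0319). CENPJ, in spite of its symbol, encodes a protein of centriole growth. It had 663 and 608 in wt/GFP and wt spheroids against 688 and 716 in monolayers, a change of -0.14 that did not pass (95% interval -0.47 to 0.19, adjusted p = 0.49), and it passed as lower under median centring (-0.53, adjusted p = 0.0066).

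The constitutive centromere genes were set against the 24 genes of the outer kinetochore, RZZ complex and checkpoint. The groups follow the role of the protein, and constitutive means that the protein stays on the chromatin. Cell cycle regulation of the RNA was not measured in either group. The constitutive genes fell in 11 of 13 cases with a median of -1.44, and the outer kinetochore and checkpoint genes in 22 of 24 cases with a median of -1.39, beside 18.6% called lower among all genes. The medians differed by 0.05 log2 units, less than the SD of 0.37 of this difference over the lines. In wt/GFP the medians were -1.75 for the constitutive and -1.45 for the outer and checkpoint genes, and in wt they were -1.11 and -1.34, so the order turned between the lines. The difference was not tested, since genes of a list are not replicates of a culture. Both groups ranged widely, from -2.01 to 0.67 in the constitutive genes and from -2.33 to -0.18 in the others.

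The 80 probe sets of these genes that passed the filter were also tested singly. Of them 64 were called lower, 0 higher and 16 were not called, beside 16.1% lower and 26.6% higher among all probe sets tested. Among 18 genes with more than 1 such probe set, all probe sets had the same sign in 15, and all were called lower in 12. The probe sets used for 15 of the 48 genes are of types that can bind several or related transcripts, 4 of the _x_at type (CENPA, CENPH, CENPL and SKA1) and 11 of the _s_at type (CENPN, CENPU, ZWINT, MIS12, NSL1, CENPF, KNTC1, BUB3, MAD2L1, BIRC5 and CDCA8). For 9 genes no other type passed the filter, and of the remaining 39 measured with unshared probe sets 32 were called lower. Among all 11224 genes tested with unshared probe sets, 15.2% were called lower.

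Between the lines, 0 of the 48 genes passed at an adjusted p under 0.05 in limma, against 5 of all genes, or 0.0349%. In spheroids 35 of 48 genes were lower in wt/GFP than in wt, against 49% of all genes, with a median difference of -0.20 log2 units. In monolayers 23 of 48 were lower in wt/GFP than in wt, against 46.7% of all genes, with a median difference of 0.0017. The median change of the 48 genes was -1.66 in wt/GFP and -1.38 in wt. With 1 array for each line and culture, this difference between lines cannot be tested, and spiked hybridisation controls read higher for spheroids, with median differences of 0.79 log2 units in wt/GFP and 0.39 in wt, whose part in the result was not tested.

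**Figure D3:**
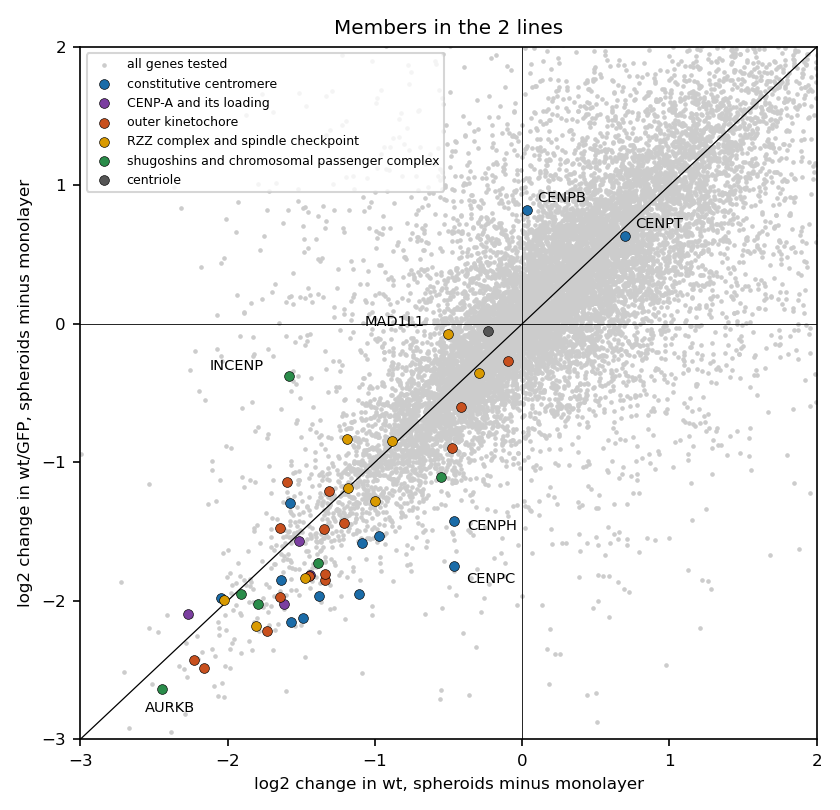
Log2 change (spheroids minus monolayer) in wt on the horizontal axis and in wt/GFP on the vertical axis. Coloured points are the 48 genes by role, grey points are all genes tested, the diagonal marks equal change, and grey points beyond the axes are not shown. Of the 48 genes, 34 lie below the diagonal, against 51.1% of all genes, and CENPC and CENPH lie farthest below it among the labelled genes.

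The size of every fall depends on how the arrays are scaled, since the median of all genes moved from 0.23 with the deposited scaling by -0.21 under quantile normalization, -0.39 under median centring and -0.59 under scaling to the hybridisation controls. The share of all genes called lower was 18.6% with the deposited scaling and 21.0%, 32.4% and 26.1% under these alternatives. In the same order, the count of the 48 genes called lower was 42 with the deposited scaling and 44, 46 and 44 under the alternatives. All 42 were called lower under all 4 scalings, as were 17.2% of all genes, while 0 of the 48 and 6.84% of all genes were higher under all 4. The alternatives all lowered the median, so this check was lenient for genes that fell. Relative to the median of all genes, the 48 genes had a median change of -1.76. Higher genes made up 62.3% of calls over all genes with the deposited scaling, 33.6% with median-centred arrays and 20.8% when the hybridisation controls set the scale. CENPB, at 0.43 with the deposited scaling, had -0.17 (adjusted p = 0.733) under the last of these.

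**Figure D4:**
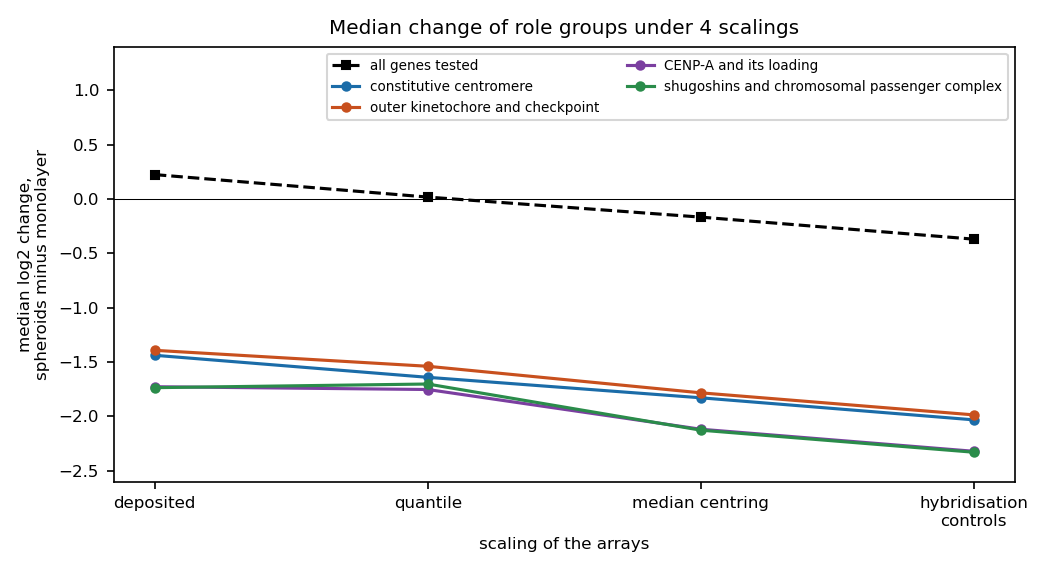
Median log2 change (spheroids minus monolayer) of 4 role groups and of all genes tested (dashed) under 4 scalings of the arrays. The median of all genes moves from 0.23 to -0.37, the constitutive group from -1.44 to -2.03 and the outer kinetochore and checkpoint group from -1.39 to -1.99, so the groups move down with all genes.

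Other genes that work at these sites were taken from lists written beside the 49. Of 18 further centromere and kinetochore genes 13 fell and 1 rose, with a median of -0.72, beside 18.6% lower and 30.7% higher among all genes. CDC20, which activates the anaphase-promoting complex and is held by the checkpoint, had 2108 and 2602 in wt/GFP and wt spheroids against 11758 and 13144 in monolayers, and fell by 2.40 ± 0.11. KIF2C, a kinesin that takes microtubules apart at centromeres, fell by 2.27 ± 0.12. TRIP13, an ATPase that remodels Mad2, had 1078 and 1293 in spheroids against 4631 and 4915 in monolayers, and fell by 2.00 ± 0.12. SPDL1, a dynein adaptor bound by the RZZ complex, fell by 1.80 ± 0.14. The gene called higher was NDE1, a dynein regulator, at 0.64 ± 0.12. It was not called under median centring (0.25) or with the hybridisation controls as scale (0.044), nor on its 3 other probe sets that passed the filter. NDE1 and ESCO1 below were named after their values were seen.

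Of 16 genes of the anaphase-promoting complex and its enzymes, the target of the checkpoint, 11 fell and 1 rose, with a median of -0.44, beside the same 18.6% and 30.7%. UBE2C and UBE2S, the ubiquitin-conjugating enzymes of the complex, fell, with changes of -1.42 ± 0.12 and -1.35 ± 0.12. ANAPC16, a small subunit, was called higher at 0.81 ± 0.12, but not with the hybridisation controls as scale (0.21, adjusted p = 0.609). Its 3 other probe sets gave 1.34, called higher, and 0.062 and 0.22, not called. Of 15 cohesin and separase genes 9 fell and 1 rose, with a median of -0.50, beside the same shares. These counts use the brightest probe set, and other probe sets disagreed for some genes. A gene counted as fallen had others called higher (0.72 and 0.76), and some genes that were not called had others called lower. CDCA5, which encodes sororin, and ESCO2, an acetyltransferase of cohesin, fell, with changes of -1.95 ± 0.14 and -1.49 ± 0.20. ESCO1, a relative of ESCO2, was called higher at 0.73 ± 0.12, but not with the hybridisation controls as scale (0.14, adjusted p = 0.803). It was also called higher under quantile normalization (0.77) and median centring (0.34). The other probe sets of ESCO1 gave 0.98 and 1.06, each called higher. Under all 4 scalings 13 of the further centromere and kinetochore genes, 7 of the anaphase-promoting complex and 8 of the cohesin list were called lower and 0 higher. Among all genes 17.2% were lower and 6.84% higher under all 4. All 7 proliferation markers fell, with a median of -1.75, and the changes of CCNA2 and MCM2 were -2.15 ± 0.12 and -2.01 ± 0.12. These medians and the -1.54 of the kinetochore and centromere genes are descriptions, and the differences between lists were not tested.

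Promoters were read because most of these genes fell together. RefSeq promoters on GRCh38.p14, spanning 250 bases before to 50 after a start site, were matched by symbol for 39 of the 49 genes, CENPP included, with 45 promoters. They were searched on both strands for TTTGAA and TTTAAA, letters known from the cell cycle homology region of genes expressed in mitosis, and for CCAAT, the box bound by NF-Y. On the printed strand a CCAAT of the other strand reads ATTGG and a TTTGAA of the other strand reads TTCAAA. The letters TTTAAA read the same on both strands, and matches can overlap, as in the last one of CDCA8. Shown are 150 bases before to 20 after the start, with matches in capitals: 5 genes that fell and carry the letters TTTGAA, then 3 that did not pass.
CDCA8, chr1:37692366-37692535, plus strand: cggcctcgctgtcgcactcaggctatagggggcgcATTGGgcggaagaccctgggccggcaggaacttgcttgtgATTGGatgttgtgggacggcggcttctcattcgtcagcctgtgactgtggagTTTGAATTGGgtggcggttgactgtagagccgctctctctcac
CENPA, chr2:26785906-26786075, plus strand: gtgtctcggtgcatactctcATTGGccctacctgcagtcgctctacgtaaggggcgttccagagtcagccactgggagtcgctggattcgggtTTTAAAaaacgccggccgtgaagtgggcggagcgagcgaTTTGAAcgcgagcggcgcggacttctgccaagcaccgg
BUB1B, chr15:40160919-40161088, plus strand: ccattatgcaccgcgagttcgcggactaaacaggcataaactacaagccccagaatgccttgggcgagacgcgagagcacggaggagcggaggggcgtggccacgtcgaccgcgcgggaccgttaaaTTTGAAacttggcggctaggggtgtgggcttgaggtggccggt
NDC80, chr18:2571407-2571576, plus strand: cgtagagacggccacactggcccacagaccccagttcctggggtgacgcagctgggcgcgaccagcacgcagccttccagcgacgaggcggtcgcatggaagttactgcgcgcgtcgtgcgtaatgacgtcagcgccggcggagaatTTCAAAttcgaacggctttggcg
CENPN, chr16:81007064-81007233, plus strand: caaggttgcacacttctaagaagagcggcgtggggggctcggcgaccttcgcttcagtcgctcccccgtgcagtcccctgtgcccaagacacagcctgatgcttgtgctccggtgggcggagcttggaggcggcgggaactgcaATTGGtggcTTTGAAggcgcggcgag
CENPB, chr20:3786721-3786890, minus strand: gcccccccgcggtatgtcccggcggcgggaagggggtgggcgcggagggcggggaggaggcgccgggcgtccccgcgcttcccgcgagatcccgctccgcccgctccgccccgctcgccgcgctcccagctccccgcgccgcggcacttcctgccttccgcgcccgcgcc
CENPT, chr16:67847674-67847843, minus strand: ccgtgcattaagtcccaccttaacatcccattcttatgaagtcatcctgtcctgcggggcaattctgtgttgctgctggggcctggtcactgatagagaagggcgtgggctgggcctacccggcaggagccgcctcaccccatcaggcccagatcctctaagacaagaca
MAD1L1, chr7:2232926-2233095, minus strand: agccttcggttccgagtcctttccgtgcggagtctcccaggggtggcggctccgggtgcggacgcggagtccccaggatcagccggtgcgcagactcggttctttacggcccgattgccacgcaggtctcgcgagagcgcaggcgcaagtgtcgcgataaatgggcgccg

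In CDCA8 and BUB1B the first base of TTTGAA lies 23 bases before the start and in CENPA 18 before it, and NDC80 holds the letters on the other strand, 3 before the start. CENPN, of the constitutive group, holds TTTGAA just after its start. The windows of CENPB, CENPT and MAD1L1 hold none of the letters, and the CENPB window is 83.5% G and C, against 60% in CDCA8. The windows shown are picked examples and do not stand for all genes. Among promoters of genes that did not pass, CCAAT was in 3 of 6, those of SGO1 and MIS12, and TTTGAA in 0 of 6. Among promoters of genes called lower, TTTGAA was in 18 of 36, and those of AURKB, with the largest fall, held CCAAT only. TTTGAA was in 18 of 45 promoters of the listed genes, or 40%, and in 15.2% of all 35116 promoters. It was in 3 of 13 constitutive promoters and in 11 of 22 outer kinetochore and checkpoint promoters. CCAAT was in 30 of 45, or 66.7%, and in 34.6% of all promoters, while TTTAAA was in 5 of 45, or 11.1%, and in 12.2% of all.

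The 17 genes with TTTGAA in a promoter were all called lower, with a median change of -1.60, and of the 21 without it 16 were called lower, with a median of -1.34. Over all genes tested that have a promoter sequence, 22.4% of those with TTTGAA and 19.4% of those without were called lower. Presence of the letters is a description of the sequence and names no bound factor.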

How the data were processed

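RNA was measured on 4 Affymetrix arrays, 2 per culture condition and 1 for each line in it. The deposited table holds 54675 probe sets, 62 of them controls, as intensity values that are MAS5 signals per the submitters' processing notes (version not given in the sources used here). The number of arrays limits the precision. Probe sets were named from the platform annotation, updated through a RefSeq gene table: 41091 had 1 symbol, 1801 several and 11721 none.

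Signals became log2(signal + 14.0), the pseudocount being the 25th percentile. Probe sets with a mean above the 40th percentile (5.48, a signal of 30.6) were kept, and each gene took its brightest one. limma 3.58.1 in R 4.3.3 fitted culture and cell line with a trended eBayes step (1 residual and 26.7 prior degrees of freedom), two-sided, with Benjamini-Hochberg adjustment over 14337 genes and a threshold of 0.05. The SE is moderated and rests mainly on other genes. Nothing states separate cultures, so p-values measure the disagreement of the lines, mostly that of other genes, and this disagreement may be technical. Pairing comes from the cell line in the labels; line differences in monolayers and spheroids correlated at 0.00683 across genes. The procedure was tested on simulated data. Named genes were all 49 listed and, from each other list, genes among the 4 with the largest change, with 2 exceptions stated where they appear. The genes, lists and tests were chosen with earlier results of these data known.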

Additional observations from a re-analysis of the deposited data

How the results depend on the processing

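The 17 alternatives gave 774 values of single genes with the same direction and call as reported, 17 that lost the call, 13 that gained it and 2 that turned, CENPB at -0.17 when the hybridisation controls set the scale and BUB3 at 0.071 with unshared probe sets. Of the 42 genes called lower, 36 kept the call under every alternative that tested them, and 36 of 48 genes were called without the trend. With 1 array left out, the median change of the 48 genes lay between -1.57 and -1.40, against 0.19 to 0.25 over all genes. Leaving out 1 array gave 40 to 41 genes lower and 0 to 1 higher; those fits have no line term, and the lone array of a culture is assumed to vary like the other pair. Without the replicate block for cell line, 41 of the 48 genes were lower, and over all genes 2516 were lower and 4114 higher, against 2663 and 4396 with it; BUB3 was the call lost (adjusted p = 0.09).

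The median of the 48 genes was -1.93 under median centring and -2.13 with the hybridisation controls as scale, where the constitutive genes had -2.03. The outer kinetochore and checkpoint genes had -1.54 under quantile normalization, -1.78 under median centring and -1.99 with the controls. Over all genes, median centring gave 4645 lower and 2352 higher, the controls gave 982 higher, unshared probe sets gave 1702 lower, and no trend gave 1176 lower and 2653 higher. The outer and checkpoint median minus the constitutive one, 0.05 as reported, turned to -0.052 with the median signal as pseudocount, -0.12 with averaged probe sets and -0.31 with the Mis12 complex counted as constitutive, and ran from -0.22 to 0.19 when 1 array was left out. The cause was not tested. Only 4 arrays, with 1 per line and culture, limit all of these, and dim probe sets (CENPT, SGO1, INCENP, CENPI) have the widest errors.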
